A study of Mus musculus with 12 samples.

Results

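Nodal signalling in mouse embryonic stem cells that lack Dicer1 or Dgcr8 was followed through 8 genes: the ligands Nodal and Gdf3, the co-receptor Tdgf1 (Cripto), the convertase Furin, the secreted inhibitors Lefty1, Lefty2 and Cer1, and the Smad partner Foxh1. They were taken by symbol, not by measured values, and all 8 were among the 18412 genes of each deposited table. The data are strand-specific sequencing of polyadenylated RNA, 12 libraries in 4 groups of 3. Dicer_KO is a line labelled Dicer1-/- and is set against TFC, the wild-type line of the Dicer series. Dgcr8_KO is a line labelled Dgcr8-/- and is set against V6.5, the wild-type line of the Dgcr8 series. Both mutants are stable lines, and all 4 lines were cultured alike, on gelatin-coated plates with serum and leukaemia inhibitory factor. Each genotype is represented by 1 line, so the lost gene and other differences between a pair of lines cannot be told apart. No label says whether the libraries came from separate cultures, so p-values measure only the spread between these libraries.

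Nodal is a ligand of the Tgf-beta family that is made as a precursor and cleaved by convertases such as Furin. With its co-receptor Tdgf1 it binds activin receptors, which phosphorylate Smad2 and Smad3, and these join Smad4 and partners such as Foxh1 on target genes. Nodal itself and the Lefty genes are known targets, and the Lefty proteins block the ligand and its co-receptor, which closes a negative feedback loop. Dgcr8 and Dicer1 act in sequence in microRNA production. In embryonic stem cells the most abundant microRNAs include the miR-290 and miR-302 families, which share a seed. In zebrafish, miR-430, a microRNA with a closely related seed, is known to repress the messengers of a Nodal ligand and of a Lefty inhibitor.

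The sequences of 5 microRNAs of these families are shown because their seed, bases 2 to 8, in capitals, finds a match in both Lefty messengers. All are mature mouse microRNAs from RefSeq, written 5′ to 3′. The first pair lies on chromosome 3 and the others on chromosome 7.
mmu-miR-302b-3p: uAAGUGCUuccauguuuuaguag
mmu-miR-302d-3p: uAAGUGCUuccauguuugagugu
mmu-miR-291a-3p: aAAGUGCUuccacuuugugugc
mmu-miR-294-3p: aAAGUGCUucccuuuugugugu
mmu-miR-295-3p: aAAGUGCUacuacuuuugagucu

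The word complementary to this seed, AGCACTT, was searched on the sense strand of the 3′ UTRs annotated in GENCODE M21, whose coordinates are those of mm10. It occurred once in Lefty1, at position 238 of a 3′ UTR of 425 bases, and once in Lefty2, at position 104 of 1290 bases. In both it was followed by an A, the 8-base form of a match, in capitals here.
Lefty1, chr1:180938191-180938220, plus strand: ttgttcactgcactgtatgcgaAGCACTTA
Lefty2, chr1:180897895-180897924, plus strand: ttcttgtccatcacccagtttaAGCACTTA
The word was in 0 of the other 6 members, and 15.1% of 17864 annotated 3′ UTRs hold it. The shorter word GCACTT, which is contained in the first, also occurred once in Nodal and once in Furin. The word that matches the let-7 seed, CTACCTC, occurred once among the 8 genes, in Gdf3, and in 9.34% of all 3′ UTRs. It is shown in capitals because Gdf3 is the member with the clearest difference.
Gdf3, chr6:122606027-122606056, minus strand: actcatggcaattctctttcctCTACCTCc
These matches describe the sequence only. Promoters were available from RefSeq for 4 members, as the 250 bases before and 50 after the start, and were searched on both strands. The Foxh1 core word AATCCAC was in 0 of the 4 and in 2.49% of 32851 promoters. The Smad core word CAGAC was in those of Tdgf1, Furin and Cer1, not in that of Nodal, and in 49.6% of all.

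The deposited values are group means of normalised reads, a signal scaled by the authors per library and per table. Each mean was resolved into its 3 libraries, called A, B and C, where A is the library of each group least correlated with the other 2. Libraries held 5965348 to 33628272 exonic reads and 559057 to 5627798 intronic reads. In every group the difference between A and the mean of B and C followed the share of G and C in the transcript (Spearman rho across genes 0.62 in Dicer_KO, 0.61 in TFC, 0.79 in Dgcr8_KO and 0.65 in V6.5, as a description). A fit with a term for A against B and C is therefore given beside the results whose call it changes. Library A was picked from these same exonic values, and no label names it as a batch. Adjusted p-values with that term, from libraries B and C alone or without a library A depend on this choice. They are not independent support. TFC library B had 309 genes without a read whose other libraries in the pair averaged at least 100 normalised exonic reads, against 7 to 72 such genes in the other 11 libraries. The 8 stem cell markers summed to 94162, 67340 and 67374 normalised reads in Dgcr8_KO libraries A, B and C, and to 79674, 25186 and 31787 in V6.5. The 8 primitive streak markers summed to 261, 149 and 159 in Dgcr8_KO, where T, Mesp1 and Lhx1 were at 0, against 350, 3975 and 4672 in V6.5. The 12 fibroblast markers summed to 609 to 1508 in Dgcr8_KO, with Lum at 0, and to 5871 to 13978 in V6.5, with none at 0. The 8 trophectoderm markers summed to 1343 to 2583 in Dgcr8_KO, with Elf5 at 0, and to 9932 to 13722 in V6.5. In the Dicer pair, stem cell markers summed to 97214 to 123426 in Dicer_KO and 81553 to 118848 in TFC, and streak markers to 225 to 380 in Dicer_KO and 321 to 483 in TFC. Fibroblast markers there summed to 532 to 738 in Dicer_KO, with Col1a2, Col3a1, Postn and Lum at 0, and to 519 to 964 in TFC. Trophectoderm markers there summed to 3413 to 5585 in Dicer_KO and to 1623 to 5582 in TFC, with Elf5 at 0 in TFC. The part of other cell types in the differences between groups was not tested. Exonic Dicer1 had a log2 fold change of -1.03 (SE 0.23, adjusted p = 0.0752 by limma, 0.00201 with that term) in Dicer_KO against TFC, and exonic Dgcr8 one of -1.80 (SE 0.47, adjusted p = 0.111, 0.00131 with that term) in Dgcr8_KO against V6.5. Neither gene had overlapping groups. The labels do not name the deleted part of either gene.

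Gdf3, a ligand of the Vg1 type that signals through the same receptors as Nodal and can also inhibit bone morphogenetic proteins, was the only member that passed the test in exons. It lies on chromosome 6 (122605403 to 122610087, minus strand) and has 2 exons. It had 5474, 4225 and 4808 normalised exonic reads in Dgcr8_KO libraries A, B and C, against 1836, 1654 and 1364 in V6.5. Every Dgcr8_KO library was above every V6.5 library, which held for 10.6% of all genes tested and for 1 of 7 members. The authors' group means were 4836 in Dgcr8_KO and 1618 in V6.5, a ratio of 2.99. The log2 fold change was 1.58 (SE 0.25, 95% interval 1.0 to 2.16, adjusted p = 0.0364 by limma over 12776 genes). In that comparison 1.35% of all genes tested passed, and 0.783% passed as higher, against 1 of 7 members.

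The Gdf3 difference was the same size in both library sets, 1.58 within A and 1.58 within B and C. Library A of V6.5 is the one whose stem cell and streak markers were close to those of Dgcr8_KO, although its fibroblast markers (5871) and trophectoderm markers (12142) were not. The call was lost without a variance trend (adjusted p = 0.0760), with limma-voom (0.0559), and without Dgcr8_KO library B (0.190) or C (0.193) or V6.5 library B (0.213) or C (0.177). The log2 fold change stayed between 1.46 and 1.68 when any 1 library was left out. Fewer cells that express a gene and less RNA per cell cannot be told apart in such bulk samples, here and for every gene that follows.

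In the Dicer pair, Gdf3 had 5128, 4831 and 5932 normalised exonic reads in Dicer_KO, against 3052, 3399 and 3839 in TFC. The groups again did not overlap, with a log2 fold change of 0.63 (SE 0.22, adjusted p = 0.229 by limma). With the library-set term the adjusted p was 0.0189. Of all genes tested in the Dicer exons, 11.7% had Dicer_KO libraries all above the TFC libraries, against 2 of 7 members, Gdf3 and Lefty2.

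Intronic reads are taken here to come from unspliced transcripts, which was not tested. Those of Gdf3 lay the same way in the Dgcr8 pair. They numbered 218, 95.2 and 110 normalised reads in Dgcr8_KO, against 53.3, 58.0 and 32.4 in V6.5. The groups did not overlap, and the log2 fold change was 1.48 (SE 0.52, adjusted p = 0.193 by limma). In the Dicer pair they numbered 238, 148 and 216 in Dicer_KO, against 149, 153 and 166 in TFC, and the groups overlapped (0.33, SE 0.46, adjusted p = 0.812).

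Nodal, the ligand that names the pathway, showed no difference past the test in any comparison. It lies on chromosome 10 (61417972 to 61425338, plus strand). It had 1731, 872 and 1073 normalised exonic reads in Dicer_KO, against 1522, 738 and 975 in TFC, with a log2 fold change of 0.19 (SE 0.37, 95% interval -0.65 to 1.03, adjusted p = 0.856 by limma). It had 1774, 670 and 550 in Dgcr8_KO, against 1300, 879 and 754 in V6.5, with a log2 fold change of -0.13 (SE 0.48, 95% interval -1.24 to 0.98, adjusted p = 0.944). The groups overlapped in both pairs, and library A was the highest of each group.

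Intronic Nodal reads varied more between libraries than between groups. They numbered 120, 27.7 and 195 in Dicer_KO, against 153, 358 and 154 in TFC (log2 fold change -1.22, SE 0.71, adjusted p = 0.564 by limma), and without Dicer_KO library B the value is -0.41. They numbered 61.5, 71.1 and 93.8 in Dgcr8_KO, against 82.9, 56.5 and 140 in V6.5 (-0.22, SE 0.50, adjusted p = 0.885). Both pairs overlapped.

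Tdgf1, the co-receptor that Nodal needs to reach its receptors, was the most abundant member per kilobase of exon in every group. It lies on chromosome 9 (110939603 to 110946158, minus strand). Its deposited exonic means were 26073 in Dgcr8_KO and 12858 in V6.5, a ratio of 2.03. Resolved by library, it had 15715, 31418 and 31087 normalised exonic reads in Dgcr8_KO, against 11624, 10911 and 16039 in V6.5. Library A of Dgcr8_KO lay below library C of V6.5, so the groups overlapped. The log2 fold change was 0.97 (SE 0.36, adjusted p = 0.235 by limma). With the library-set term the adjusted p was 0.0177, and between libraries B and C alone the log2 fold change was 1.24 (adjusted p = 0.0239).

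The Dgcr8_KO mean of Tdgf1 could be split into whole reads in 4 ways, of which the only one with its 3 libraries within 3-fold was kept. The others give a log2 fold change of 0.20, -0.73 and -2.28, while the ratio of the deposited means is the same under all of them. Because the rule keeps libraries close to each other, the SE and p-values of exonic Tdgf1 depend on it too. The intronic means had 1 solution each and do not share this limit. Intronic Tdgf1 reads numbered 1096, 1261 and 1234 in Dgcr8_KO, against 634, 487 and 529 in V6.5. Each Dgcr8_KO library was above each V6.5 library. The log2 fold change was 1.13 (SE 0.28, 95% interval 0.53 to 1.72, adjusted p = 0.0638 by limma), just outside the threshold of 0.05. It passed with the library-set term (adjusted p = 0.00930), with limma-voom (0.0475), with a pseudocount of 10 (0.0411), between libraries B and C alone (0.0284) and without Dgcr8_KO library A (0.0370). It did not pass with TMM scaling, a pseudocount of 0.1, no filter, a minimum mean of 50 or no variance trend. Nor did it pass without Dgcr8_KO library B or C or without any V6.5 library. The highest adjusted p over the alternatives was 0.293. In these introns 9.61% of all genes had Dgcr8_KO libraries all above V6.5, against 2 of 6 members, Gdf3 and Tdgf1.

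In the Dicer pair Tdgf1 showed no difference past the test. It had 18541, 37966 and 34414 normalised exonic reads in Dicer_KO, against 21560, 48003 and 39054 in TFC (log2 fold change -0.25, SE 0.42, adjusted p = 0.834 by limma). Intronic reads numbered 1450, 1507 and 2103 in Dicer_KO, against 1408, 2003 and 1986 in TFC (-0.10, SE 0.27, adjusted p = 0.923). The groups overlapped in both. The Dicer_KO exonic mean had 2 whole-read solutions, and the other one gives a log2 fold change of -0.86. In the annotation 12.5% of the 50-base words of Tdgf1 occur also in the pseudogene Tdgf1-ps1, so its reads may be split between the copies.

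Furin, the convertase that cleaves the Nodal precursor, differed more between libraries of a group than between groups. It lies on chromosome 7 (80388585 to 80405436, minus strand). It had 989, 105 and 106 normalised exonic reads in Dicer_KO, against 795, 0 and 141 in TFC. It had 884, 154 and 52.8 in Dgcr8_KO, against 772, 261 and 95.6 in V6.5. Library A was the highest of every group, and the groups overlapped in both pairs. The log2 fold change was 2.21 in the Dicer pair (SE 2.19, adjusted p = 0.707 by limma) and -0.47 in the Dgcr8 pair (SE 1.11, adjusted p = 0.909). The first value rests on the listed 0 in TFC library B and is -0.59 without that library, while the ratio of the deposited means was 1.28. The antisense gene Gm44851 overlaps Furin, and since no source used here says whether counting used strand, their reads cannot be told apart.

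Lefty1 and Lefty2, secreted inhibitors of Nodal, lie 35918 bases apart on chromosome 1, Lefty2 at 180893108 to 180899103 and Lefty1 at 180935022 to 180938400, both on the plus strand. Their coding sequences are identical at 91.9% of 1107 aligned bases. Of the 50-base words of the transcripts, 281 are shared, 17.9% of those of Lefty1 and 11.6% of those of Lefty2, so reads may be split between them. Their exonic means were higher in both knockouts, but the test passed in neither pair.

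Lefty1 had 9029, 1673 and 1943 normalised exonic reads in Dicer_KO, against 3013, 980 and 895 in TFC. It had 7930, 1565 and 1582 in Dgcr8_KO, against 1813, 1057 and 964 in V6.5. Library A was far above B and C in every group, so that the groups overlapped. In both pairs the knockout library A was above the wild-type library A, and knockout B and C were both above wild-type B and C. No label pairs these libraries, and the split into A against B and C was made from the same values. The share of all genes with this pattern is not given. The log2 fold change was 1.16 in the Dicer pair (SE 0.68, adjusted p = 0.491 by limma) and 1.14 in the Dgcr8 pair (SE 0.64, adjusted p = 0.440). Without the knockout library A it was 0.38 in the Dicer pair and 0.36 in the Dgcr8 pair. With the library-set term the adjusted p was 0.00293 in the Dicer pair and 0.0210 in the Dgcr8 pair. Within library A the difference was 1.58 in the Dicer pair and 2.13 in the Dgcr8 pair, and within B and C it was 0.94 and 0.64 in the same order of pairs.

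Intronic Lefty1 reads did not separate the groups. They numbered 191, 149 and 151 in Dicer_KO, against 168, 42.3 and 144 in TFC (log2 fold change 0.68, SE 0.63, adjusted p = 0.714 by limma), and without TFC library B the value is 0.066. They numbered 69.1, 104 and 111 in Dgcr8_KO, against 59.2, 112 and 66.1 in V6.5 (0.28, SE 0.48, adjusted p = 0.841). Both pairs overlapped, and library A was the highest of its group in the Dicer pair and the lowest in the Dgcr8 pair.

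Lefty2 had 4910, 6675 and 5423 normalised exonic reads in Dicer_KO, against 3879, 4601 and 4092 in TFC. Every Dicer_KO library was above every TFC library, with a log2 fold change of 0.43 (SE 0.22, adjusted p = 0.442 by limma). In the Dgcr8 pair it had 4580, 6194 and 7714 in Dgcr8_KO, against 1716, 3578 and 5273 in V6.5. Here the groups overlapped, with a log2 fold change of 0.92 (SE 0.43, adjusted p = 0.358). With the library-set term the adjusted p was 0.0788 in the Dicer pair and 0.0205 in the Dgcr8 pair.

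Few intronic reads came from Lefty2. They numbered 45.3, 113 and 39.5 in Dicer_KO, against 34.5, 0 and 92.2 in TFC (log2 fold change 2.01, SE 1.76, adjusted p = 0.70 by limma). That value rests on the listed 0 in TFC library B and is 0.056 without that library, while the ratio of the deposited means was 1.56. They numbered 29.0, 44.7 and 40.5 in Dgcr8_KO, against 14.8, 40.2 and 4.99 in V6.5 (1.29, SE 0.93, adjusted p = 0.569). Per kilobase, its exonic level was 120 times its intronic level in Dicer_KO, 139 times in TFC, 226 times in Dgcr8_KO and 246 times in V6.5. The median gene had 38.1, 37.9, 49.2 and 48.2 in the same groups, and Lefty1 had 27.0, 14.5, 40.9 and 16.9.

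Cer1, a secreted antagonist that binds Nodal and that marks visceral endoderm and early mesendoderm in the embryo, was nearly absent. It lies on chromosome 4 (82881751 to 82885148, minus strand). It had no exonic read in Dicer_KO or Dgcr8_KO, 40 reads in TFC, all in library C, and 16 reads in V6.5, all in library B. TFC library C was also the library with the highest sum of the 12 endoderm markers in its pair, 1883 normalised reads, against 320 to 457 in Dicer_KO and 337 and 485 in the other TFC libraries. Endoderm markers summed to 211 to 321 in Dgcr8_KO and 754 to 1197 in V6.5. The part of such cells in the Cer1 reads was not tested. For counting error only, and if reads were independent counts, a count of 0 would allow up to 3 reads per library. That is 1.92 to 3.98 normalised reads per Dicer_KO library and 1.25 to 2.40 per Dgcr8_KO library. Even read numbers were in excess, so the limit may be higher. Cer1 was below the minimum mean of 10 for the test and had no intronic read in any library.

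Foxh1, the forkhead factor that carries Smad complexes to DNA, showed no difference past the test. It lies on chromosome 15 (76668225 to 76669948, minus strand). It had 1006, 642 and 583 normalised exonic reads in Dicer_KO, against 1303, 190 and 406 in TFC (log2 fold change 0.63, SE 0.64, adjusted p = 0.712 by limma). It had 983, 299 and 360 in Dgcr8_KO, against 815, 518 and 276 in V6.5 (-0.05, SE 0.58, adjusted p = 0.988). The groups overlapped in both pairs, and without TFC library B the Dicer value is -0.010. Its introns were below the minimum mean.

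**Figure D1:**
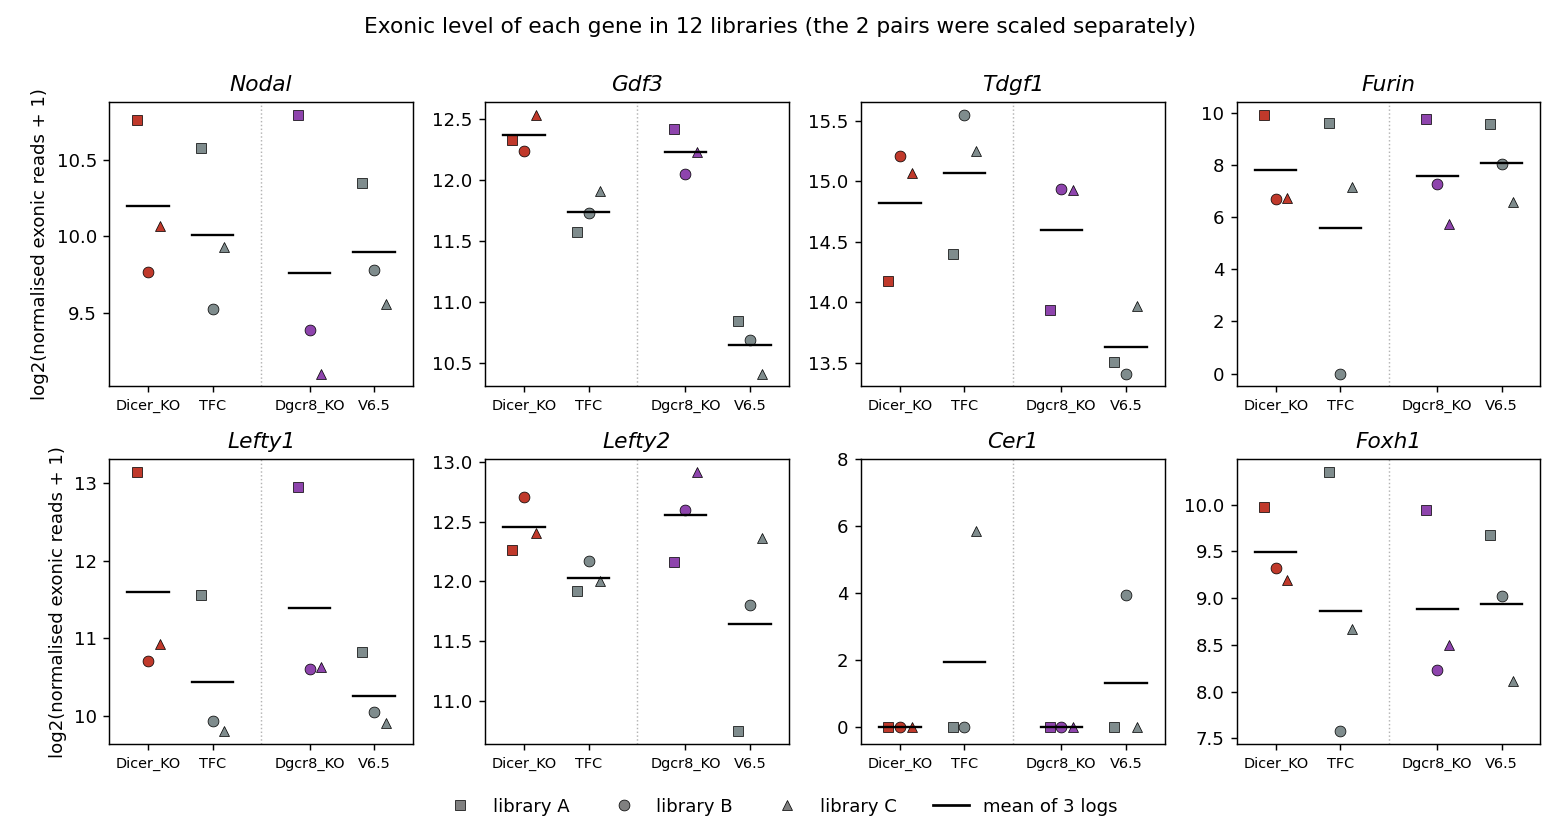
Exonic level of the 8 genes in each of 12 libraries, as log2 of normalised reads plus 1, with symbols for libraries A, B and C and a bar at the mean of the 3 logs. The knockout stands left of its wild type, and the pairs were scaled separately. Gdf3 in Dgcr8_KO (4225 to 5474 normalised reads) lies above V6.5 (1364 to 1836), whereas Lefty1 has 1 high library in every group.

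Over the group, 7 of 8 members passed the filter on low exonic values, and Cer1 did not. In the Dicer exons 6 of 7 had a log2 fold change above 0, where 49.3% of all genes did, and the median of the 7 was 0.63, against -0.01 over all 13239 genes tested. Without TFC library B, Nodal (-0.053), Furin (-0.59) and Foxh1 (-0.010) fell below 0. No member passed the test by limma or limma-voom, where 1.19% of all genes passed by limma, and 1 of 7, Gdf3, had an unadjusted p under 0.05, where 14.4% of all genes did. In the Dgcr8 exons 4 of 7 were above 0, where 45.7% of all genes were, and the median was 0.92, against -0.08 over all genes. An unadjusted p under 0.05 was found for 2 of 7, Gdf3 and Tdgf1, where 16.2% of all genes had one. With the library-set term 2 members passed as higher in Dicer_KO, Gdf3 and Lefty1, where 7.25% of all genes did. With the same term 4 passed as higher in Dgcr8_KO, Gdf3, Tdgf1, Lefty1 and Lefty2, where 8.32% of all genes did. Only genes above a minimum mean enter these counts and medians.

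In introns 6 of 8 members were tested, without Cer1 and Foxh1. None passed by limma, where 0.353% of all genes passed in the Dicer pair and 1.53% in the Dgcr8 pair. In the Dicer introns 0 of 6 had an unadjusted p under 0.05, where 10.1% of all genes did, and 0 passed by limma-voom. In the Dgcr8 introns 2 of 6 had an unadjusted p under 0.05, Gdf3 and Tdgf1, where 14.5% of all genes did. Tdgf1 also passed by limma-voom there, for which the share of all genes is not given.

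The exonic change was next set against the intronic change of the same gene, which asks whether exonic and intronic reads moved by different amounts. No member passed this test by limma in either pair. No gene did at all, of 11054 tested in the Dicer pair and 10389 in the Dgcr8 pair (0% each), where 3.55% and 5.68% of genes had an unadjusted p under 0.05 and 0 of 6 members did in either. For Gdf3 the exonic minus the intronic log2 change was 0.30 (SE 0.44) in the Dicer pair and 0.06 (SE 0.46, 95% interval -1.05 to 1.17) in the Dgcr8 pair. For Tdgf1 it was -0.15 (SE 0.46) in the Dicer pair and -0.19 (SE 0.46) in the Dgcr8 pair. For Lefty1, one of the pair with the seed match, it was 0.48 (SE 0.79, 95% interval -1.47 to 2.42) in the Dicer pair and 0.82 (SE 0.91, 95% interval -1.36 to 2.99) in the Dgcr8 pair. For Lefty2, the other, it was -1.57 (SE 1.89, and 0.37 without TFC library B) in the Dicer pair and -0.41 (SE 1.07) in the Dgcr8 pair. For Nodal it was 1.41 (SE 0.91, adjusted p = 0.926) in the Dicer pair and 0.05 (SE 0.73) in the Dgcr8 pair. The intervals of the Lefty genes span no change and more than a doubling, so a difference of that size was not detectable with these libraries. For Lefty1 the exonic SE (0.68 Dicer, 0.64 Dgcr8) was larger than the intronic SE (0.63 and 0.48).

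**Figure D2:**
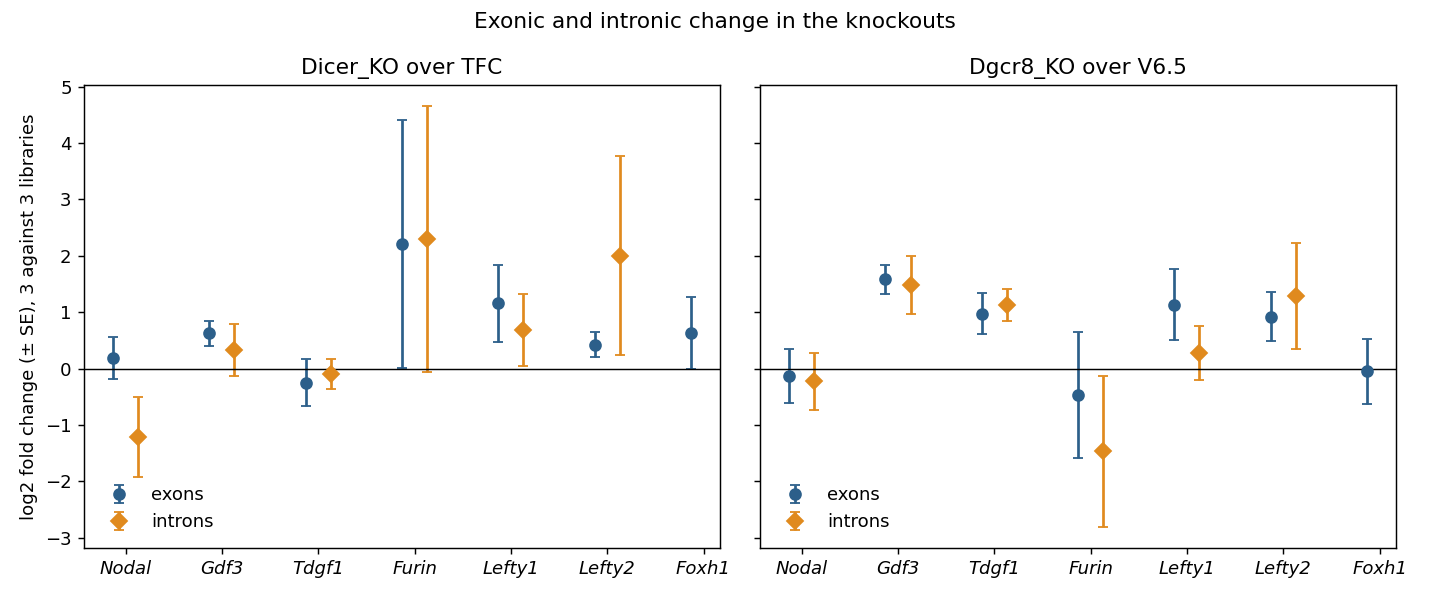
Log2 fold change of exonic reads (circles) and intronic reads (diamonds) of 7 genes, with bars of 1 SE over 3 against 3 libraries. In Dgcr8_KO over V6.5 the exonic and intronic values of Gdf3 (1.58 and 1.48) and of Tdgf1 (0.97 and 1.13) lie side by side, while those of Lefty1 are 1.14 and 0.28 with overlapping bars.

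The knockout effects of the pairs were compared directly, as the Dicer effect minus the Dgcr8 effect. No member passed in exons or introns by limma, where 0.178% and 0.00957% of all genes did, and 1 of 7 in exons (Gdf3) and 1 of 6 in introns (Tdgf1) had an unadjusted p under 0.05, where 7.02% and 7.14% of all genes did. For Gdf3 the exonic difference of effects was -0.95 (SE 0.30, adjusted p = 0.350), and between libraries B and C alone the adjusted p was 0.0458. For Tdgf1 it was -1.22 in exons (SE 0.58, adjusted p = 0.736) and -1.22 in introns (SE 0.36, adjusted p = 0.451). Between libraries B and C alone the exonic difference of Tdgf1 was -1.50 (adjusted p = 0.0194 by limma). That value depends on the whole-read solutions kept for exonic Tdgf1 in both knockouts, which were chosen for libraries close to each other. For Lefty1 the exonic difference was 0.02 (SE 1.05, 95% interval -2.27 to 2.31), an interval too wide to tell the pairs apart or alike.

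Members differed in how they varied between libraries of the same group. Furin was higher in library A than in the mean of B and C by 2.28 to 6.06 on the log2 scale over the 4 groups. The same difference was 0.84 to 2.33 for Lefty1, 0.72 to 2.23 for Foxh1 and 0.67 to 1.55 for Nodal. It was -0.24 to 0.29 for Gdf3, -1.34 to -0.16 for Lefty2 and -1.01 to -0.19 for Tdgf1. The 4 genes above 0 in every group had the highest share of G and C in their transcripts, 60.3% for Furin, 59.1% for Foxh1, 58.6% for Lefty1 and 55.9% for Nodal. The share was 51.5% for Lefty2, 49.5% for Gdf3 and 45.3% for Tdgf1, with a median of 49.7% over 17864 genes. The Lefty genes thus lay on opposite sides, although they neighbour each other and are alike in coding sequence. The part of base composition in the knockout differences was not tested.

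**Figure D3:**
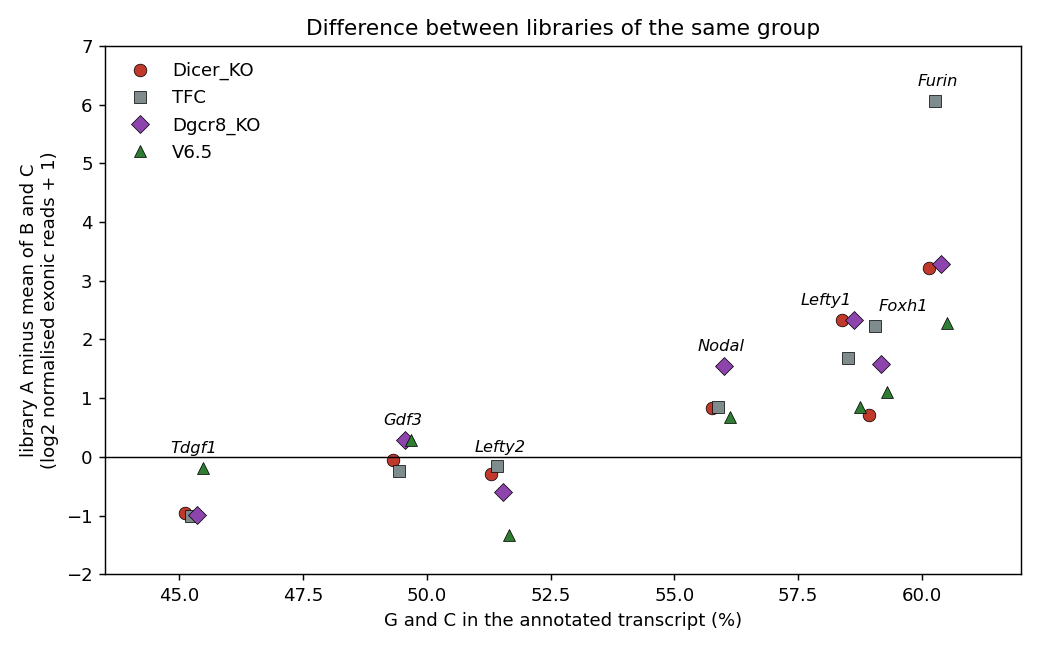
Difference between library A and the mean of B and C of the same group (log2 of normalised exonic reads plus 1) against the share of G and C in the annotated transcript, for 7 genes and 4 groups. Furin (2.28 to 6.06) and Lefty1 (0.84 to 2.33) lie above 0 in every group and Tdgf1 (-1.01 to -0.19) below it.

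Levels could be ordered within a table after division by exon length. In Dicer_KO, Tdgf1 came first with a deposited mean of 15728 normalised reads per kilobase. Lefty1, Gdf3 and Lefty2 followed with 2600, 2493 and 2289, and then Nodal with 585, Foxh1 with 544, Furin with 89.8 and Cer1 with 0. In Dgcr8_KO, Tdgf1 had 13530, Lefty2 2488, Lefty1 2278, Gdf3 2276, Nodal 476, Foxh1 401, Furin 81.6 and Cer1 0. In V6.5, Tdgf1 had 6673, Lefty2 1422, Lefty1 788, Gdf3 761, Nodal 467, Foxh1 393, Furin 84.5 and Cer1 2.78. In TFC, Tdgf1 had 18789, Lefty2 1692, Gdf3 1614, Lefty1 1005, Nodal 515, Foxh1 463, Furin 70.1 and Cer1 11. In all 4 groups the library ranges of Lefty1, Lefty2 and Gdf3 overlapped one another, as did those of Nodal and Foxh1. Those of Nodal and Lefty1 also overlapped in TFC and V6.5, and those of Foxh1 and Furin in TFC. The co-receptor thus led in each group, and the inhibitors Lefty1 and Lefty2 had higher means than Nodal in each.

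Across the 12 libraries, each pair centred on its own mean, the genes most like Nodal among 12388 were Pgs1, Pcbp4 and Scap (Pearson r = 0.97 each). Those most like Lefty1 were Tnrc18, Ctdsp1 and Gbf1 (0.96 each), and those most like Lefty2 were Prr11, Dennd2c and Coch (0.93 each). Among members, Furin and Foxh1 had r = 0.90, Nodal and Foxh1 0.86, and Nodal and Tdgf1 -0.77. Lefty1 and Lefty2 had -0.01. These values are descriptions over 12 libraries whose differences within a group followed base composition.

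The other genes of Nodal and Activin signalling, 30 of 31 listed in the tables, were read beside the members. In the Dicer exons 27 were tested, and 16 had a value above 0 and 11 below, where 49.3% of all genes were above 0. The median was 0.21. None passed by limma, where 1.19% of all genes did. An unadjusted p under 0.05 was found for 2 of 27, where 14.4% of all genes had one, and 2 of 27 passed as higher with the library-set term, Pmepa1 and Nomo1, where 7.25% of all genes did. These shares of calls are near or below those of all genes. Pmepa1, a Smad target that also restrains Smad signalling, had 1153, 904 and 539 normalised exonic reads in Dicer_KO, against 412, 123 and 262 in TFC. The groups did not overlap, and the log2 fold change was 1.80 (SE 0.54, adjusted p = 0.163, with the library-set term 0.0147). Nomo1, an endoplasmic reticulum protein that modulates Nodal signalling in zebrafish, had a log2 fold change of 0.83 (SE 0.24, adjusted p = 0.157, with the library-set term 0.00593). The convertase Pcsk5 had 2.25 (SE 2.24, adjusted p = 0.708) and T -1.58 (SE 2.16, adjusted p = 0.783), both from few reads.

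In the Dgcr8 exons 26 of these genes were tested, and 12 were above 0 and 14 below, where 45.7% of all genes were above 0. The median was -0.08. Where 1.35% of all genes passed by limma, 1 of the 26 did. This was T (brachyury), a mesoderm factor of the primitive streak, with 0 reads in every Dgcr8_KO library against 66.0, 2021 and 2243 normalised reads in V6.5 (adjusted p = 0.0328 by limma). If reads were independent counts, a floor of 3 reads per library would put its mean at least 724-fold lower in Dgcr8_KO. Even read numbers were in excess, so the bound may be lower. The V6.5 mean rests on libraries B and C, with 66.0 in library A. The call was lost with a pseudocount of 10 (adjusted p = 0.0528), with limma-voom (0.353) and without Dgcr8_KO library B (0.177) or C (0.149) or V6.5 library B (0.225) or C (0.177). Inhba, which encodes the subunit of activin A, had 12.5, 6.21 and 0 normalised reads in Dgcr8_KO, against 30.5, 178 and 284 in V6.5, a log2 fold change of -4.67 (SE 1.32, adjusted p = 0.133, 0.0298 with the library-set term). Mixl1, another streak gene, had 23.4, 12.4 and 25.6 in Dgcr8_KO, against 25.4, 455 and 822 in V6.5 (-3.39, SE 1.26, adjusted p = 0.232, 0.0349 with the library-set term). With that term 3 of 26 passed as lower, T, Inhba and Mixl1, where 8.63% of all genes did, and 2 as higher, Inhbb (adjusted p = 0.00862) and Pcsk6 (0.0270), where 8.32% did. T, Inhba and Mixl1 were highest in libraries B and C of V6.5, where stem cell markers were low. T and Mixl1 are themselves among the 8 streak markers, so the high streak sums of these libraries are in part their own reads. The part of differentiated cells in these values was not tested.

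None of the 3 receptors and 3 Smads tested passed in exons or introns by limma. Their exonic log2 fold changes ran over -0.34 to 0.53 in the Dicer pair and -0.33 to 0.40 in the Dgcr8 pair, and their intronic ones over -1.68 to 2.44 and -0.67 to 0.06. The intronic 2.44 is that of Acvr2b, with 111, 97.1 and 25.4 normalised reads in Dicer_KO. It rests in part on a listed 0 in TFC library B, beside 44.2 and 39.1 in A and C. Acvr1b, the activin receptor that Nodal uses, had an exonic value of 0.24 (SE 0.58, 95% interval -1.07 to 1.54) in the Dicer pair and -0.04 (SE 0.51) in the Dgcr8 pair. Smad2 had 0.41 (SE 0.28) and 0.40 (SE 0.34), and Smad4 had -0.34 (SE 0.24) and -0.33 (SE 0.23), in the same order of pairs.

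**Figure D4:**
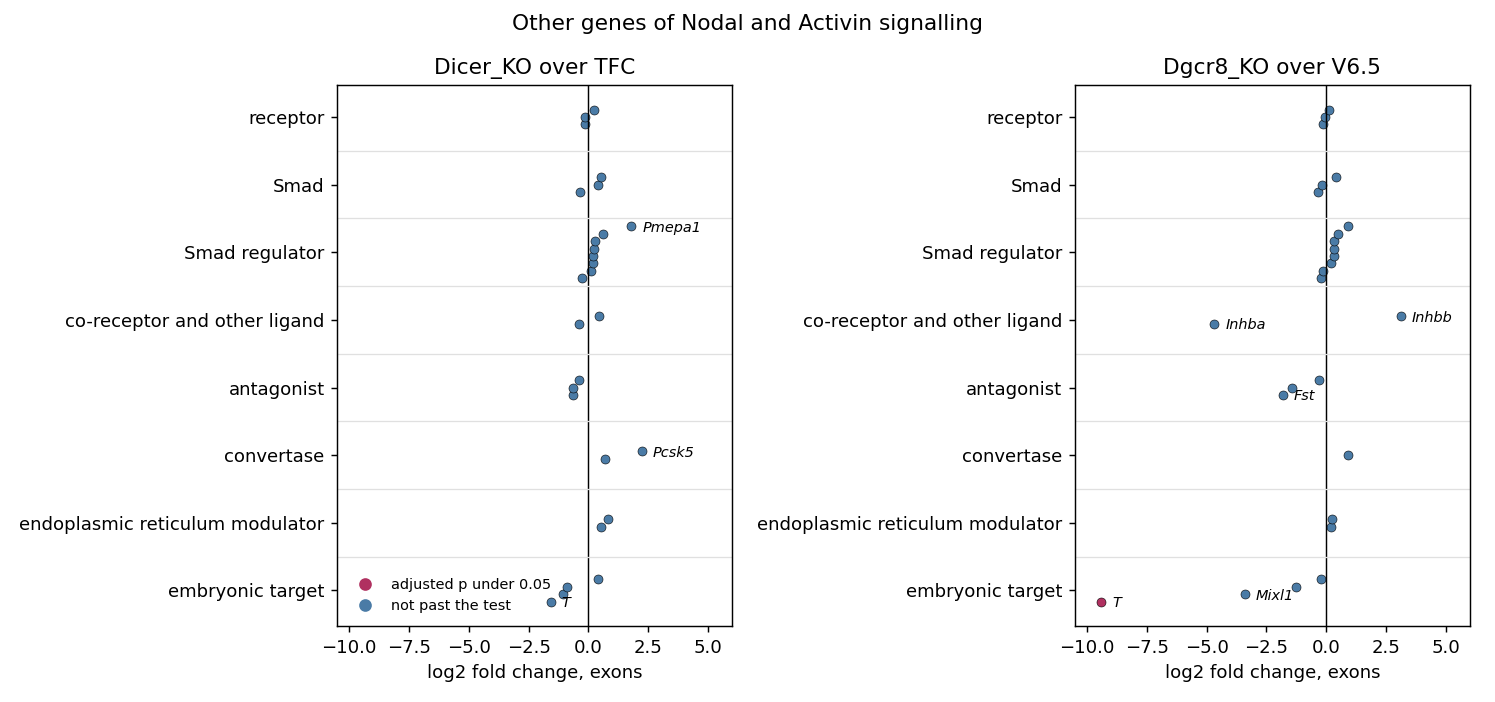
Exonic log2 fold change of the other genes of Nodal and Activin signalling by role, 27 genes in Dicer_KO over TFC and 26 in Dgcr8_KO over V6.5, with names where it exceeded 1.5 either way. Only T in the Dgcr8 pair passed the test (adjusted p = 0.0328). Its position reflects the pseudocount of 1, since it had no read in Dgcr8_KO.

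In the introns 23 and 22 of the listed genes were tested in the Dicer and Dgcr8 pairs. None passed in the Dicer pair by limma, with 4 of 23 at an unadjusted p under 0.05, where 10.1% of all genes were, and among the largest values were -3.45 for Inhbb (SE 2.09, adjusted p = 0.580) and 2.82 for Smad7 (SE 1.51, adjusted p = 0.539). Inhbb had 40.3, 0 and 0 normalised intronic reads in Dicer_KO, against 26.4, 22.2 and 83.8 in TFC. The Smad7 value rests on a listed 0 in TFC library B and is 0.57 without it, with a ratio of deposited means of 1.77. In the Dgcr8 introns only T of the 22 passed, as lower (adjusted p = 0.0205, 0.00326 to 0.370 over the alternatives), where 1.53% of all genes passed by limma. Among the next was -2.78 for Bambi, a pseudoreceptor (SE 1.65, adjusted p = 0.475). Inhbb, an activin B subunit, had 39.3, 5.73 and 24.3 normalised intronic reads in Dgcr8_KO and none in V6.5 (adjusted p = 0.272). No listed gene passed in the exonic against intronic test or in the comparison of the knockout effects by limma, with an unadjusted p under 0.05 for 4 of 23 (Dicer) and 1 of 22 (Dgcr8) in the first, where 3.55% and 5.68% of all genes had one, and for 2 of 26 (exons) and 3 of 21 (introns) in the second, where 7.02% and 7.14% did. In the exonic against intronic test, values among the largest were 3.91 for Inhbb and -2.59 for Acvr2b in the Dicer pair, and 2.45 for Bambi and 1.77 for Ncln in the Dgcr8 pair. That of Inhbb rests in part on the listed 0 in Dicer_KO libraries B and C. That of Acvr2b rests in part on a listed 0 in TFC library B, and leaving out 1 library gave -3.67 to -0.90. For the Dicer effect minus the Dgcr8 effect, values among the largest were 4.28 for Inhba and -2.67 for Inhbb in exons and 3.34 for Drap1 in introns. Drap1 had a listed 0 in TFC library B and in Dgcr8_KO library B, and leaving out 1 library gave 2.09 to 4.61. Values of T and of Inhbb that rest on a group without a read in exons or introns are set by the pseudocount and are not given.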

How the data were processed

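The submitters' processing notes name TopHat2 2.0.12, DESeq and mm10. The counting step and its annotation were not given in the sources used here. Exons and introns of each pair have a table, and each deposited column is the signal (normalised reads) of 1 genotype, per the file headers. The values themselves resolve as means of 3 libraries, each divided by a size factor of its own.

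Printed to 15 digits, each mean was resolved into whole reads per library (99.5 to 100% of genes had 1 solution or were 0). The method was tested on simulated data. The planned tests assumed such values. Even read numbers made up 60.1 to 77.9% in exons, so precision is lower than the read totals imply. Intronic libraries were lettered by the exonic library whose deviations they shared most (r of 0.31 to 0.42 for A, 0.09 to 0.28 for B and C).

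Each comparison was fitted with limma 3.58.1 in R 4.3.3, with a variance trend, on log2(normalised reads + 1), over genes with a mean of at least 10 across libraries, with Benjamini-Hochberg adjustment over all of them and a threshold of 0.05. A fold change on this scale can understate that of low genes. With a library at a listed 0 it can instead exceed the log2 ratio of the deposited means, as for Furin in the Dicer exons (2.21 against 0.36). Alternatives were the pseudocount, filter, scaling, variance model, library sets and leaving out each library. Named genes are the 8 members and, of the pathway list, those past the test and the 3 with the largest change in each comparison, of which 1 gene is not reported here. Acvr1b, Smad2, Smad4, Nomo1 and Pcsk6 were named after their values were seen. The members and lists were chosen with earlier results of these data known. Reference sequences are from RefSeq and GENCODE M21.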

Additional observations from a re-analysis of the deposited data

How the results depend on the processing

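No paired analysis was possible because the deposited columns carry no replicate number. The quasi-likelihood test on recovered reads was not run, since the tables hold no counts, and limma-voom was run only within a table. The comparison of libraries B and C alone and the other whole-read solutions were chosen after seeing the data. The cause of each change was not tested.

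Genes called in the Dicer exons numbered 158, against 35 without a variance trend, 1630 with the library-set term, 62 for B and C alone, 21 with limma-voom, 89 without Dicer_KO library A, 478 without TFC library A and 0 to 7 without any B or C library. In the Dgcr8 exons they numbered 172, against 106 with a pseudocount of 0.1, 2166 with the set term, 2042 for B and C alone, 50 with limma-voom, 469 without Dgcr8_KO library A, 384 without V6.5 library A and 0 without any B or C library. In the Dicer introns they numbered 41, against 87 with a pseudocount of 10, 1 without a trend, 92 with the set term, 0 for B and C alone, 63 with limma-voom, 13 without Dicer_KO library A, 37 without TFC library A and 0 to 2 without any B or C library. In the Dgcr8 introns they numbered 164, against 66 with a pseudocount of 0.1, 314 with 10, 107 without a trend, 451 with the set term, 169 to 176 without a library A and 26 to 72 without any B or C library. The exonic against intronic tests called 0 genes under every alternative run. The difference of effects called 22 genes in exons, against 272 with the set term, 636 for B and C alone, 22 to 102 without a library A and 11 to 21 without any B or C library. In introns it called 1, against 9 with a pseudocount of 10, 4 without a filter, 7 with the set term, 50 for B and C alone, 1 to 21 without a library A and 0 to 2 without any B or C library.

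These log2 values changed sign. Foxh1 in the Dgcr8 exons was 0.079 with limma-voom and 0.029 as the ratio of deposited means, and Nodal there was 0.030 by that ratio. Tdgf1 there was -0.73 and -2.28 under other solutions. In the Dgcr8 exonic against intronic test Lefty2 was 0.050 with a pseudocount of 10 and Nodal -0.36 for B and C alone. Leaving out 1 library gave, in the Dicer exons, -0.091 to 0.47 for Nodal, -0.58 to 0.075 for Tdgf1, -0.59 to 4.23 for Furin, -0.010 to 1.38 for Foxh1 and -3.16 to 0.042 for T. In the Dgcr8 exons it gave -0.65 to 0.20 for Nodal, -0.57 to 0.32 for Foxh1 and -1.56 to 0.46 for Furin. In introns it gave -0.26 to 0.0037 for Tdgf1 (Dicer), -2.54 to 0.18 for Furin (Dgcr8) and -0.53 to 0.12 for Nodal (Dgcr8). In the exonic against intronic test of the Dicer pair it gave -0.41 to 0.067 for Tdgf1, -0.19 to 0.86 for Lefty1, -2.08 to 1.80 for Furin and -2.86 to 0.37 for Lefty2. In that of the Dgcr8 pair it gave -0.58 to 0.56 for Nodal, -0.39 to 0.093 for Tdgf1, -0.15 to 1.33 for Lefty1, -0.10 to 0.35 for Gdf3 and -1.0 to 0.67 for Lefty2. For the difference of effects it gave, in exons, -0.75 to 0.80 for Lefty1, -0.12 to 4.70 for Furin and -0.0079 to 0.84 for Nodal, and in introns -0.22 to 0.76 for Lefty1 and -1.23 to 2.04 for Lefty2. Exonic and intronic Gdf3 and intronic Tdgf1 in the Dgcr8 pair kept their sign under every alternative run, as did, among others, exonic Lefty1 and Lefty2 in both pairs.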
